A study of Mus musculus with 4 samples.

Results

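The genes described here encode proteins that the gut epithelium and its phagocytes release against bacteria. They are the C-type lectins Reg3a, Reg3b and Reg3g and the related pancreatic stone protein gene Reg1, the peptidoglycan recognition protein gene Pglyrp1, the lysozyme genes Lyz1 and Lyz2, the angiogenin-type ribonuclease gene Ang4, the resistin-like peptide gene Retnlb and the alpha-defensin gene Defa31. Members were all probe sets that the platform annotation pairs with 1 of these symbols, which gave 14 of 45101 probe sets and 10 of 18194 genes; 7 of the 10 genes had 1 probe set. Total RNA came from the liver and the duodenum of wild types and of mice whose transgene expresses a constitutively activated aryl hydrocarbon receptor (AhR), a transcription factor normally switched on by dioxins and by dietary and microbial indoles. Each of the 4 groups (wild-type liver, transgenic liver, wild-type duodenum and transgenic duodenum) was 1 Affymetrix Mouse Genome 430 2.0 array, hybridised with RNA pooled from 3 female mice aged 5 to 6 weeks on standard chow. For the transgene, neither the promoter nor the cells that carry it are named in the labels. With 1 array per group there is no spread between replicates, so no value below carries an error or a test, and each difference describes these pools only.

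In the small intestine, Paneth cells at the crypt base secrete lysozyme, alpha-defensins, angiogenin-type ribonucleases and Reg3 lectins, enterocytes add Reg3b and Reg3g, and goblet cells secrete resistin-like molecule beta. Reg3g binds peptidoglycan and kills Gram-positive bacteria, Pglyrp1 also binds peptidoglycan, and lysozyme cuts it. The lectin genes respond to interleukin-22, a cytokine of innate lymphoid and T cells whose production in the gut depends on AhR. Reg1 and the Reg3 genes are also expressed by pancreatic acinar cells, and Lyz2 is the lysozyme of macrophages and neutrophils.

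Several members lie beside each other in the genome. In the RefSeq gene order (GRCm38.p6), Reg3b, Reg3d, Reg3a, Reg2, Reg1 and Reg3g follow one another on chromosome 6, and Lyz2 is next to Lyz1 on chromosome 10. Upstream sequence was found in the RefSeq promoter table for 9 of the 10 members, and the 250 bases before the annotated start were compared over all 36 pairs. The pair Reg3b and Reg3g is shown because both lectins were higher in transgenic duodenum, and the lysozyme pair because both were higher in transgenic liver. Sequences run 5′ to 3′ on the gene's strand, and capitals mark the longest run identical within the pair.
Reg3b (chr6:78370635-78370884, plus strand): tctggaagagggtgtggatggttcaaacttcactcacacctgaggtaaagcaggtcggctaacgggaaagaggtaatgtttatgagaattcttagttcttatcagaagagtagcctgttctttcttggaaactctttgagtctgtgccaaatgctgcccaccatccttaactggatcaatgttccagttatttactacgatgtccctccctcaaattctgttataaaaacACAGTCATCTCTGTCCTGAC
Reg3g (chr6:78468875-78469124, minus strand): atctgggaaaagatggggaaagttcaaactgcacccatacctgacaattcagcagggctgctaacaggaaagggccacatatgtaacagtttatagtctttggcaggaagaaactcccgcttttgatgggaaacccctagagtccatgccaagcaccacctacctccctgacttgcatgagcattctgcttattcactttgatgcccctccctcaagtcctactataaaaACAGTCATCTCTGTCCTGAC
Lyz1 (chr10:117292869-117293118, minus strand): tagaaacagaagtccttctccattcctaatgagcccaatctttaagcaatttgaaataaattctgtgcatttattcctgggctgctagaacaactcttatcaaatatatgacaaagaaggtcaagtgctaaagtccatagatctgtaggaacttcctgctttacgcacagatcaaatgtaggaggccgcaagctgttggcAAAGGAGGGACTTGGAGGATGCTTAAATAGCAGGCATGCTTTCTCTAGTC
Lyz2 (chr10:117282273-117282522, minus strand): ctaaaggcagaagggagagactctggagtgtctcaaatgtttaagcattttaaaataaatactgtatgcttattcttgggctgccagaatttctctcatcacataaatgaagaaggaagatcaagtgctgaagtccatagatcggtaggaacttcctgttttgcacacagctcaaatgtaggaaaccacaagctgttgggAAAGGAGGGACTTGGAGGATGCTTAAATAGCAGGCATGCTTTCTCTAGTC

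The upstream windows of Reg3b and Reg3g matched at 68.9% of aligned positions, and their last 20 bases before the start were the same. Lyz1 and Lyz2 matched at 78.8%, with 50 identical bases directly before the start. Outside the Reg and lysozyme families, the 29 other pairs matched at 46.4% to 53.1%, and Reg3a matched Reg3b at 47.9%. The core letters of the AhR response element, GCGTG or CACGC on the other strand, occurred in 0 of the 9 member windows, against 28.2% of 32851 windows of the same length. The palindrome TTCNNNGAA, which STAT factors can bind, occurred in the windows of Reg3b and Ang4, 2 of 9, against 7.02% of all windows. In Reg3b it lay at bases 129 to 121 before the start. The letters TATAAA, searched on both strands, were present in Reg3b, Reg3g, Reg1 and Defa31, 4 of 9, against 12.4% of all windows. These matches are letters only; whether a factor binds there was not measured.

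Signals are MAS5 units on a linear scale, in which each array's trimmed mean over all probe sets was 500.0. Signals under 129.3, the floor taken from the 40th percentile of the arrays, were raised to it before a ratio was formed; a fold against an array below the floor is a lower bound. A gene was read by its brightest probe set, and 2-fold was the size counted as a difference. The AhR target Cyp1a1 read 1403.5 (wild type) against 47625.8 (transgenic) in liver and 2109.5 against 20795.8 in duodenum, which goes with the genotype labels. All 9 hepatocyte markers with a probe set were above the floor on both liver arrays, and all 10 enterocyte markers on both duodenum arrays. These counts alone do not separate the tissues. On each duodenum array 6 hepatocyte markers passed the floor, as did 7 and 10 enterocyte markers in wild-type and transgenic liver. In the wild types, summed hepatocyte signal was 542553 in liver and 115576 in duodenum, and summed enterocyte signal 23617.6 and 312157. The ratio of 3′ to 5′ signal for Gapdh, a measure of RNA integrity, was 0.608 and 0.719 in wild-type and transgenic liver, but 1.03 and 3.07 in wild-type and transgenic duodenum. Its part in the duodenal differences was not tested.

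In wild-type mice these genes were mainly duodenal. Of the members, 9 were measured above the floor in duodenum, liver or both, and all 9 were 2-fold or more lower in liver, where 18.5% of all genes were lower; 13.6% of all genes and 0 members were higher in liver. As 6 of the 9 were above the floor only in duodenum, they had to differ, and the count is a description. Reg1 was at 115.1 in wild-type liver and 50872.1 in wild-type duodenum, at least 393-fold apart. Ang4 was at 172.2 and 14289.8 (83.0-fold lower in liver), and Retnlb at 11.6 and 10633 (at least 82.2-fold lower). Lyz2 was 4.81-fold lower in liver, where it read 1563.5 against 7516.7 in duodenum, and Pglyrp1 was at 6.9 and 616.7, a bound of at least 4.77-fold lower that the floor sets.

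**Figure D1:**
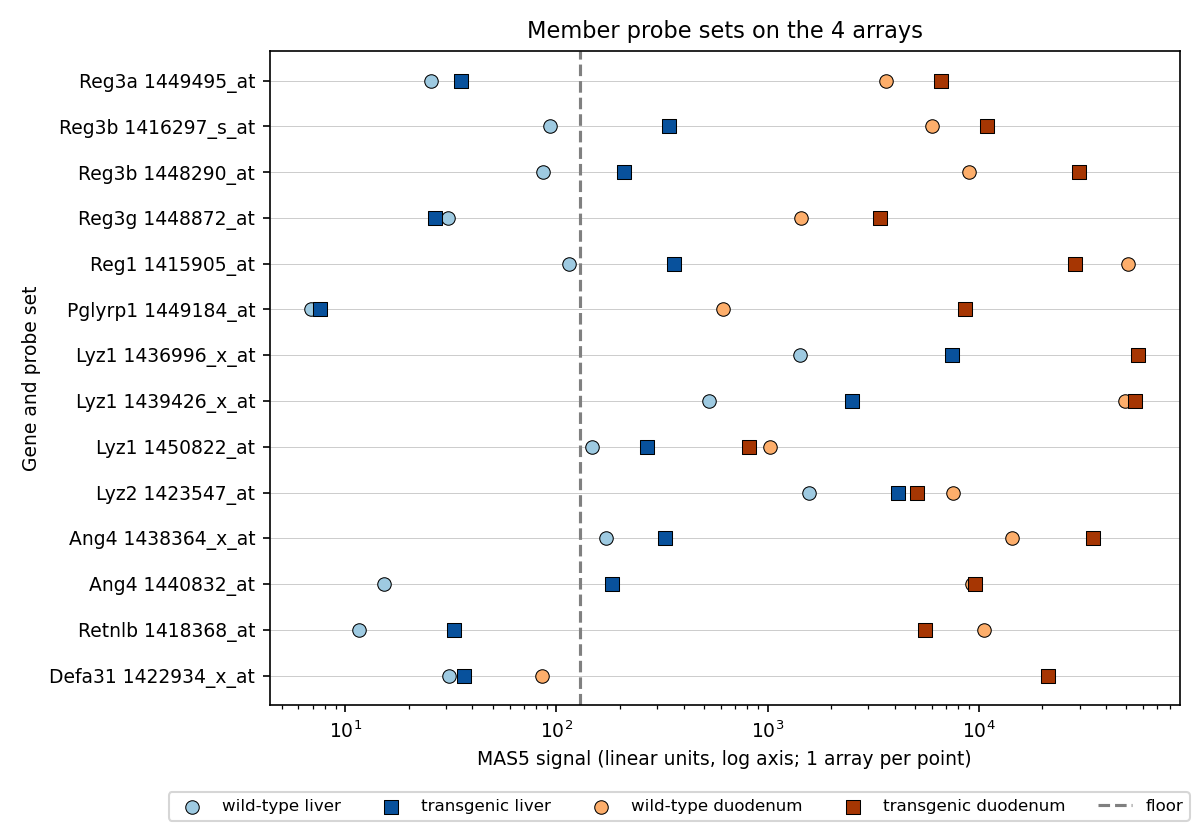
MAS5 signal (log axis) of the 14 member probe sets, with 1 point per array and the floor of 129.3 as a dashed line; points of one probe set can overlap, as for the brightest Lyz1 probe set in duodenum. Both liver points lie left of both duodenum points for every probe set; for Defa31 the wild-type duodenum point (85.4) is below the floor as well.

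In transgenic duodenum the lectins Reg3b and Reg3g, the ribonuclease Ang4, the peptidoglycan binder Pglyrp1 and the defensin Defa31 exceeded their wild-type signal by 2-fold or more. These were 5 of the 10 members, all of which were measured, beside 8.74% of 14717 genes; 0 members were 2-fold or more lower, beside 11.1%. The median log2 ratio over the 10 members was 1.05, beside -0.11 over all genes measured. By probe set, 5 of 14 were 2-fold higher, beside 7.13% of all probe sets. Lysozymes were not among the higher members, and Reg1 and Retnlb had the lowest ratios. The call for Ang4 rests on 1 probe set, and that for Defa31 on a probe set that can bind related defensins. Defa31 was above the floor in transgenic duodenum alone, so it could only be counted as higher, and the count is a description.

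Among the lectins, Reg3b had the largest difference. Its brighter probe set read 8961.4 in wild-type and 29753 in transgenic duodenum, 3.32-fold higher. Its other probe set, of the multi-transcript type (_s_at), read 6011.2 and 10888.9, 1.81-fold higher. Both probe sets were thus higher in the transgenic pool, with only the brighter one past 2-fold. Reg3g was at 1446.2 in wild-type and 3417 in transgenic duodenum, 2.36-fold higher, on its single probe set. Reg3a, whose product is also a secreted lectin, was at 3653.2 and 6600.3, 1.81-fold higher and short of 2-fold. Reg1, which encodes a lectin-like protein of pancreas and gut, differed the other way, with 50872.1 in the wild type and 28560.6 in the transgenic pool, 1.78-fold lower. Of these lectin genes, Reg3b and Reg3g thus passed 2-fold, and Reg3a and Reg1 did not.

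The other Reg genes measured on the array, taken from a list of the family, were short of 2-fold in duodenum: 0 of 3 were 2-fold higher and 0 lower. Reg2 was at 652.6 and 879.4 (1.35-fold higher), Reg4 at 2477.4 and 2554.9 (1.03-fold higher) and Reg3d at 374.7 and 322.3 (1.16-fold lower).

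Pglyrp1 was at 616.7 in wild-type and 8581 in transgenic duodenum, 13.9-fold higher. It was far below the floor in both livers, at 6.9 and 7.6. Of its family and the lysozyme-like genes, 4 of 7 with a probe set were measured in duodenum, with 0 higher and 0 lower. The highest ratios belonged to Spaca3 (77.4 and 221.3) and Lyzl4 (131.6 and 166), and the lowest to Lyzl6 (185.5 and 32.9) and Lyg1 (248.6 and 122.8). All of these signals were below 250, near the floor.

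The Defa31 probe set read 85.4 in wild-type and 21167.9 in transgenic duodenum, at least 164-fold higher, and 31 and 36.7 in the livers. Only the transgenic duodenum array was above the floor. Some other alpha-defensin probe sets were bright in both duodena. Defa39 was at 20779.1 and 36876.8, 1.77-fold higher, on an _x_at set that can bind related defensins, and a probe set annotated to both Defa30 and Defa24 was at 41240.3 and 44528.6. The latter names no single gene and was left out of all counts. So was a probe set annotated to both Defa22 and Defa21. It was below the floor at 10.3 in wild-type and 16.4 in transgenic duodenum. Defensin signal was therefore present in wild-type duodenum on the bright probe sets, and the Defa31 probe set stood apart from those. Of the 34 defensins listed, 3 had a probe set of their own and 1 was above the floor in duodenum.

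**Figure D2:**
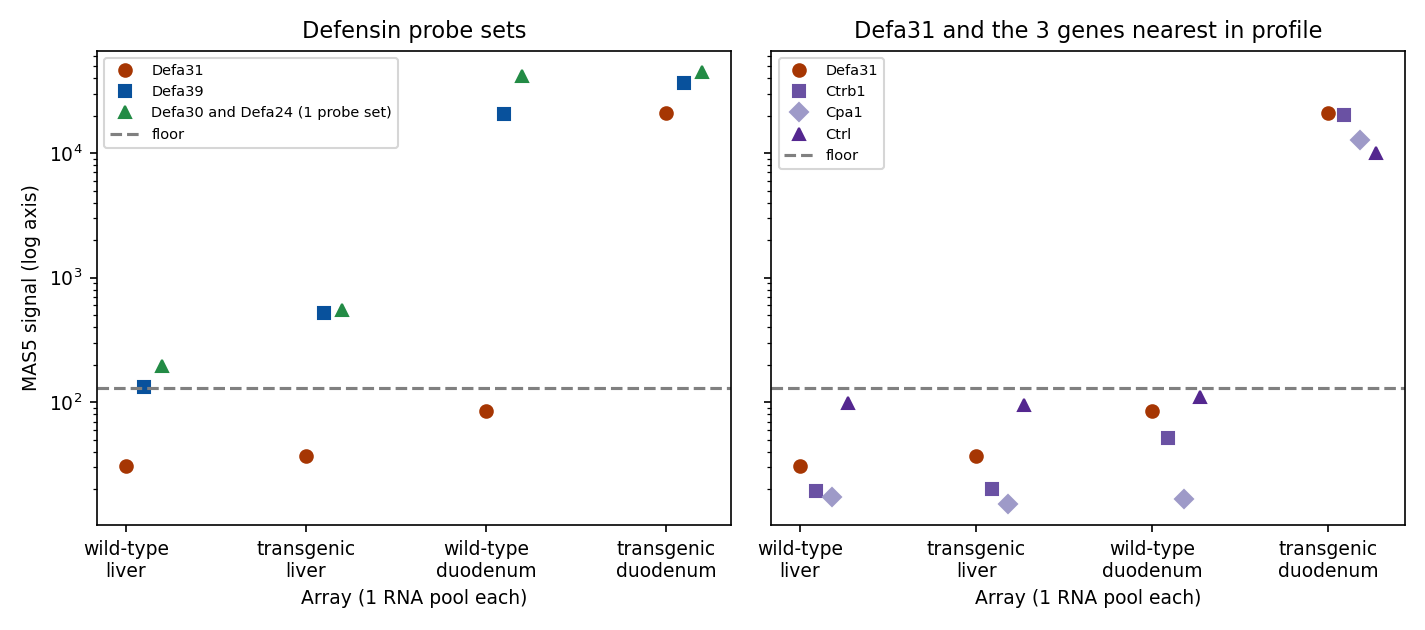
MAS5 signal (log axis) on each array for 3 defensin probe sets (left) and for Defa31 with the genes whose profile over the 4 arrays was nearest (right); points of a group are offset sideways and the dashed line is the floor. Defa31 is above the floor on the transgenic duodenum array alone, as are Ctrb1, Cpa1 and Ctrl, while Defa39 is bright on both duodenum arrays.

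The profile of Defa31 over the 4 arrays, centred on its mean log2 signal, was nearest to that of Ctrb1 among 15664 genes, with a distance of 0.067 log2 units over 4 arrays. The next were Cpa1 at 0.64 and Ctrl at 0.93; all 3 encode pancreatic protease precursors. Where 3 of 4 arrays lie at the floor, a profile holds little more than the height of the fourth array. Pancreatic transcripts were higher in the same pool: all 16 exocrine pancreas markers with a probe set were at least 2-fold above the wild type, 9 were above the floor in the wild type, and their summed signal was 7311.5 in wild-type and 140678 in transgenic duodenum. Ctrb1 was at 51.9 and 20057.7, and Cela2a at 22.2 and 14013.5. Brunner gland and stomach markers had summed signals of 3856.2 and 159251. They were higher in 6 of 7 cases, beside 8.74% of all genes, with 4 above the floor in the wild type. Tff2, their highest member, was at 225.8 and 92301.5. The part of these tissues in the member values was not tested.

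Of 9 Paneth cell markers outside the members measured in duodenum, 3 were 2-fold or more higher and 1 lower. Of all genes, 8.74% were higher and 11.1% lower. The markers had a median log2 ratio of 0.43 and summed signals of 37188.2 in wild-type and 40123.3 in transgenic duodenum. The highest of these markers were Nupr1, a stress-induced chromatin protein (207 and 951.9), and Sox9, a transcription factor of crypt progenitors and Paneth cells (122.2 and 497.8). Sox9 and Ephb3 (93.7 and 297.4) were below the floor in wild-type duodenum, so both could only be counted as higher. The lowest was Mptx1, a mucosal pentraxin, at 10192.2 and 3584.1, 2.84-fold lower. Habp2 was the next lowest at 266.5 and 182.3, 1.46-fold lower, and Dll4 was level at 303.7 and 302.2. The Paneth products Itln1 (13797.1 and 18633.2), Pla2g2a (9973.5 and 12343.4) and Mmp7, the protease that activates pro-defensins (2220.4 and 3329.2), were higher by less than 2-fold; these 3 were chosen after their values were seen. In bulk tissue, more cells of a type and more RNA per cell cannot be told apart.

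Ang4 gave a divided reading in duodenum. Its brighter probe set, of the type that can bind related transcripts (_x_at), read 14289.8 in wild-type and 34749.9 in transgenic duodenum, 2.43-fold higher. The other read 9322.4 and 9574.6, 1.03-fold higher. Only 1 of the 2 probe sets thus passed 2-fold. Among the other ribonuclease A and resistin family genes, 1 of 8 measured was higher and 1 lower in duodenum, beside 8.74% and 11.1% of all genes. Rnase1, the pancreatic ribonuclease, was the highest of these family genes at 72 and 5624.7 (at least 43.5-fold), and Rnase10 the lowest at 333.8 and 153.9 (2.17-fold lower).

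Retnlb, the goblet cell peptide induced by gut bacteria, was at 10633 in wild-type and 5579.8 in transgenic duodenum, 1.91-fold lower. Quantile normalization put its log2 ratio at -1.18 and loess also at -1.18, past 2-fold. Of 11 goblet cell markers, 2 were 2-fold higher and 0 were lower, beside 8.74% and 11.1% of all genes. The median log2 ratio of these markers was 0.19. Spdef was the highest, at 397.1 in wild-type and 1931.5 in transgenic duodenum (4.86-fold higher). Muc2, the main intestinal mucin, was at 6765 and 13595.1 (2.01-fold higher). The lowest were Atoh1, a transcription factor of secretory cells (661.7 and 437.6, 1.51-fold lower), and Klk1, a kallikrein (824.3 and 568.7, 1.45-fold lower). The part of goblet cells in the Retnlb value was not tested.

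The lysozymes showed little difference in duodenum. The brightest Lyz1 probe set read 56722.6 in wild-type and 56959.9 in transgenic duodenum (log2 ratio 0.01), and the second read 49302.2 and 54826 (1.11-fold higher). Both are _x_at sets that can bind Lyz2 transcripts. The third Lyz1 probe set, without that suffix, was dimmer at 1021.4 and 814 (1.25-fold lower), and Lyz2 was at 7516.7 and 5094.3 (1.48-fold lower). None reached 2-fold. Of 13 macrophage markers in duodenum, 0 were 2-fold higher and 1 was lower, beside 8.74% and 11.1% of all genes. The median log2 ratio of these markers was -0.02.

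Lyz1, Lyz2 and Reg1 exceeded their wild-type liver signal by 2-fold or more, 3 of the 5 members measured there, beside 4.72% of 13948 genes; 0 were lower, beside 3.60%. By probe set, 5 of 9 were higher, beside 4.42% of all probe sets. The count is a description, since Reg1 and Reg3b were above the floor in transgenic liver alone. Reg3a, Reg3g, Pglyrp1, Retnlb and Defa31 were below the floor in both livers, so no ratio was formed for them.

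The Lyz1 probe sets agreed in direction but not in size. The brightest read 1418.3 in wild-type and 7437 in transgenic liver, 5.24-fold higher. The second _x_at set read 528.4 and 2522.4, 4.77-fold higher. The probe set without the suffix read 147.8 and 267.7, 1.81-fold higher, so the 2-fold call is lost when multi-transcript probe sets are left out. Lyz2 was at 1563.5 in wild-type and 4152.8 in transgenic liver, 2.66-fold higher. The lysozymes were thus higher in transgenic liver on all 4 probe sets, and on 3 of them past 2-fold. Because the _x_at sets can bind both transcripts, the share of Lyz1 and of Lyz2 in their signal cannot be told apart.

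Of 15 macrophage and Kupffer cell markers measured in liver, 0 were 2-fold higher and 1 was lower, the median log2 ratio was -0.33, and the summed signal was 39847.6 in wild-type and 34713.9 in transgenic liver. The highest was Cd68, a lysosomal glycoprotein, at 510.4 and 790.8 (1.55-fold higher), and the lowest Cd163, a scavenger receptor, at 401.5 and 36.5 (at least 3.11-fold lower). Of 10 neutrophil markers, 1 was higher, the gelatinase gene Mmp9 (128.8 and 354.8, a bound), and 0 were lower. Of all genes in liver, 4.72% were higher and 3.60% lower.

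The gut lectins and the ribonuclease were low in liver. Reg1 was at 115.1 in wild-type and 361.1 in transgenic liver, at least 2.79-fold higher; a floor set at the 60th percentile lowered this bound to a log2 ratio of 0.44. The brighter Reg3b probe set read 86.7 and 209.2, at least 1.62-fold higher, and the other 92.8 and 340, at least 2.63-fold higher. For Ang4 the readings were 172.2 and 327.6 (1.90-fold higher) and 15.3 and 183.2 (at least 1.42-fold higher). On each of these probe sets the transgenic liver array was the higher one. Defa39, outside the members and read by an _x_at set, was at 131.9 and 520.5, 3.95-fold higher.

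**Figure D3:**
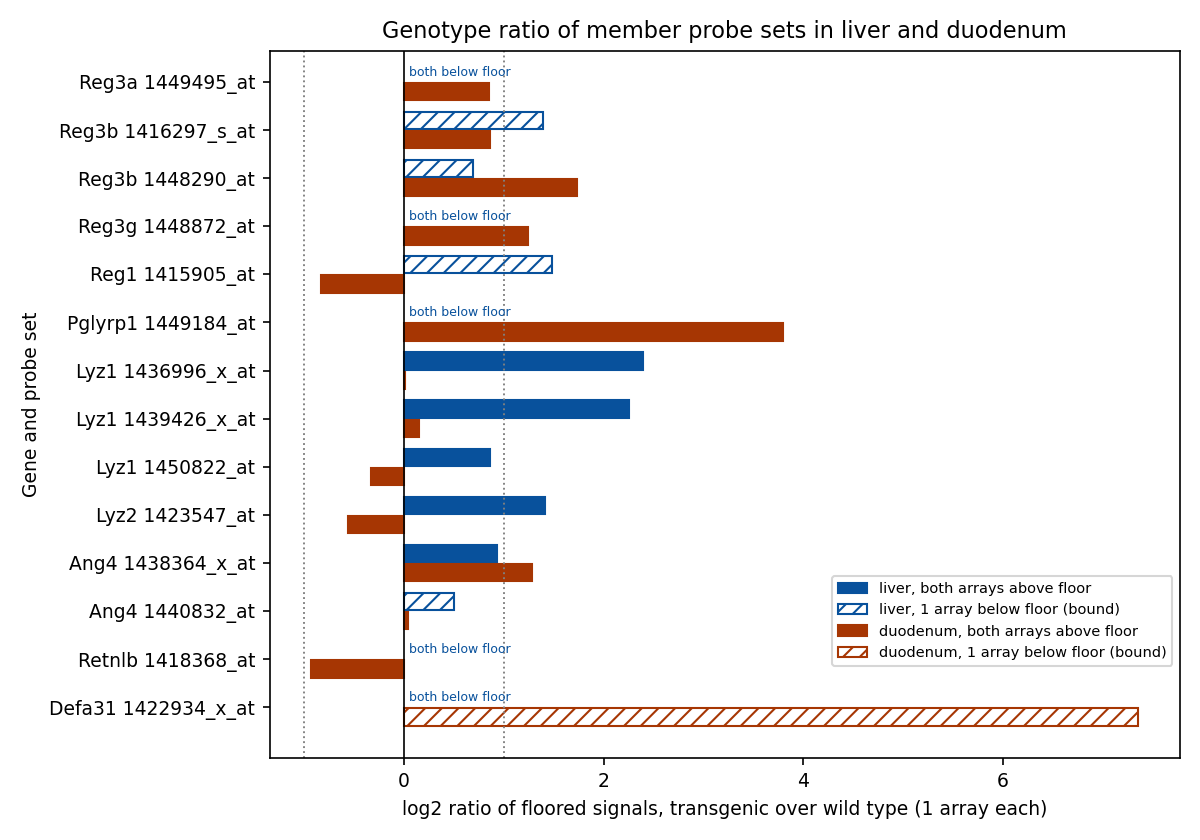
Log2 ratio of floored signals, transgenic over wild type, for the member probe sets in liver (blue) and duodenum (brown), 1 array per group; hatched bars are bounds with 1 array below the floor, and dotted lines mark 2-fold. Lysozyme bars in liver pass 2-fold (2.39 for the brightest Lyz1 probe set), except that of the dimmest Lyz1 probe set (0.86). Lysozyme bars in duodenum are short of 2-fold. The bars of Pglyrp1 (3.80) and Defa31 (7.36) are long in duodenum, with no ratio formed in liver.

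Markers of other cell types were read on the same liver arrays, where 4.72% of all genes were 2-fold higher and 3.60% lower. Of 10 enterocyte markers, 3 (Slc15a1, Lct and Vil1, each a bound) were 2-fold higher and 0 lower (median log2 ratio 0.68; summed signals of 23617.6 and 34979.7), and 10 were above the floor against 7 in the wild type. Of 8 goblet cell markers, 2 were higher and 0 lower, with summed signals of 2496 and 4598.4. Of 5 Paneth cell markers outside the members, 1 was higher (Sox9, a bound) and 0 were lower, with a median log2 ratio of -0.12. Among the 7 markers of stomach and Brunner gland, 2 reached 2-fold, and Tff2 was at 84.2 in wild-type and 2058.7 in transgenic liver, at least 15.9-fold higher; of 7 exocrine pancreas markers, 0 were higher and 1 was lower. Stellate cell and fibroblast markers were higher in 7 of 11, beside 4.72% of all genes, with summed signals of 8813.4 and 25185.4. Of 9 hepatocyte markers, 0 passed 2-fold in either direction; their median log2 ratio was -0.49 and their summed signals were 542553 and 393180. The part of these cell types in the member values was not tested.

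Genes that act upstream of these peptides were measured with them. In the interleukin-22 and interleukin-17 pathway, 1 of 16 genes was 2-fold higher and 1 lower in duodenum, beside 8.74% and 11.1% of all genes. In liver 2 of 12 were higher and 0 lower, beside 4.72% and 3.60%. The 2 higher in liver, Il17rc and Il12rb1 (73.1 and 275.9), were below the floor in the wild type and are bounds. Il17rc, a receptor subunit of interleukin-17, was the highest in both tissues, at 1152.5 and 3341.4 in wild-type and transgenic duodenum and at 82.2 and 296.5 in liver. Stat3, the transcription factor downstream of interleukin-22, was at 1739.3 and 3356.1 in duodenum (1.93-fold higher). The lowest in duodenum was Ahr itself, at 2123.3 and 590.2 (3.60-fold lower), while its liver signals were 2019.8 and 2274; whether its probe set detects the transgene is not known. Il18 was the lowest in liver, at 1262 and 737.1 (1.71-fold lower). Markers of innate lymphoid and T cells, sources of interleukin-22, were 2-fold lower in transgenic duodenum in 3 of 9 and higher in 0. Of all genes, 11.1% were lower and 8.74% higher there. The median log2 ratio of these markers was -0.67, beside -0.11 over all genes, and their summed signals were 11162.3 and 6765.5. B and plasma cell markers were lower in 3 of 8 and higher in 1, with a median of -0.55. Of 10 enterocyte markers, 2 were higher and 0 lower, with a median of 0.46. The part of these cells in the duodenal values was not tested.

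Genes of bacterial sensing were read as a list of their own. In duodenum 0 of 16 were 2-fold higher and 2 were lower, beside 8.74% and 11.1% of all genes. The 2 lower were Nfkbiz, an inducible regulator of NF-kappaB (1817.7 and 713.2, 2.55-fold lower), and Tlr9, the receptor for bacterial DNA (319.4 and 140.3, 2.28-fold lower). In liver 1 of 16 was higher and 0 were lower, beside 4.72% and 3.60% of all genes. The higher one was Tnfaip3, a brake on NF-kappaB signalling (218.9 and 443.5, 2.03-fold).

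Other secreted antimicrobial proteins were higher in liver more often than lower, in 7 of 18 cases against 1, beside 4.72% and 3.60% of all genes. Their median log2 ratio was 0.82, beside 0.01 over all genes. Zg16, a lectin of goblet cells also counted among the goblet cell markers, was at 401.3 and 1765.4 (4.40-fold higher). Saa1, an acute phase protein, was at 2391.7 and 7116.5 (2.98-fold). The remaining higher genes were Saa2 and Saa3 of the same family, Lcn2, Slpi and Cxcl14. Pigr, the receptor that carries immunoglobulin A into bile and gut, was the lowest at 14583.7 and 5854.1 (2.49-fold lower). In duodenum 4 of 19 were higher and 1 lower, beside 8.74% and 11.1% of all genes. Wfdc18 was at 205 and 5741 and Wfdc2 at 361.9 and 1768.4 (4.89-fold), both of the whey acidic protein family. Lcn2, which captures bacterial siderophores, was the lowest of the list in duodenum at 285.5 and 76.7 (at least 2.21-fold lower).

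Profiles over the 4 arrays placed the other members beside different genes. By the same distance, Cldn7, a claudin, was nearest to Ang4 (0.19) and second to Reg3b (0.39), and Cdhr2, a protocadherin of the brush border, was nearest to Reg3b (0.34) and second to Ang4 (0.34). Reg3a was nearest to Trim31 (0.14), Reg3g to Gcnt3 (0.19), Retnlb to Sectm1b (0.26) and Lyz2 to Cyp2c55 (0.22). Lyz1 was nearest to Emp1 (0.33). Reg1 and Pglyrp1 had no gene as close, with Guca2b at 0.83 and Naaladl1 at 0.90. Second to Pglyrp1 was Pnliprp2, of the exocrine pancreas markers, at 1.02 (352 in wild-type and 3827.9 in transgenic duodenum). With 4 arrays such distances describe these pools and say nothing further of the genes.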

How the data were processed

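Signal intensities per probe set on a linear scale were deposited by the authors, who made them with MAS5 per the submitters' processing notes; of the version and the scan settings nothing is recorded there. Leaving out the lowest and highest 2%, every array averaged 500.0, so ratios are relative to a global scaling. Precision is limited by the 4 arrays, 1 per group. No further normalization was applied. Signals were raised to a floor of 129.3 (mean over arrays of the 40th percentile of probe sets, without 64 controls), and log2 ratios were formed. A gene needed 1 array of a comparison above the floor to be counted in it.

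Gene names came from the annotation of the platform: 34958 had 1 symbol, 932 several and 9211 were not listed. RefSeq GRCm38.p6 gave gene order and upstream sequence; Retnlb had no entry. Members and lists were chosen with earlier results of these data known. Named were all members, the 2 highest and 2 lowest genes of each list per comparison, the 3 nearest profiles per member, and Cyp1a1 and Cyp1b1; text gives those that bear on the members. The fold rule was tested on simulated data with planted changes well past 2-fold, in genes well above the floor. That run gives no measure of calls near 2-fold or near the floor. Python 3.11.15, numpy 2.4.6, pandas 2.3.3, statsmodels 0.14.6 (loess), biopython 1.88 (global alignment) and matplotlib 3.10.9 were used. Alternatives were other floors, scalings, probe set choices and folds.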

Additional observations from a re-analysis of the deposited data

Results flagged for a closer look

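The genotype ratio pointed in opposite directions in the tissues for 3 member probe sets, on 1 array per group; the difference between tissues was not tested. Reg1 had a log2 ratio of 1.48 in liver, a bound, and -0.83 in duodenum. Lyz2 was at 1.41 in liver and -0.56 in duodenum. The dimmest Lyz1 probe set was at 0.86 in liver and -0.33 in duodenum. Of these values, those in duodenum and that of this Lyz1 probe set in liver were short of 2-fold.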

How the results depend on the processing

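No paired analysis was possible because each group held 1 array, and leaving out an array leaves no comparison. The 3 members higher in transgenic liver, beside 4.72% of all genes, became 5 with no floor, beside 11.8%. They became 5 on the scale of the spiked controls (24.5% of all genes), 5 at 1.5-fold (13.6%) and 1 at 3-fold (1.10%). The 5 members higher in transgenic duodenum, beside 8.74% of all genes, became 3 without multi-transcript probe sets (6.92%). They became 3 at 3-fold (2.39%) and 3 when all probe sets above the floor had to pass (5.01%). The 0 members lower in duodenum, beside 11.1% of all genes, became 2, Reg1 and Retnlb, under quantile normalization (7.49%). They became 2 under loess (8.53%) and 2 at 1.5-fold (25.9%). Counts of the other settings, and all those between wild-type tissues, stayed within 1.5 times. No member's called ratio changed sign under the alternatives run; of 166 alternative ratios of single members, 13 crossed 2-fold. The cause was not tested. Ang4 in duodenum was at a log2 ratio of 0.96 under quantile normalization, 0.66 when its probe sets were averaged and 0.04 once multi-transcript sets were dropped. Spiked controls shifted the median of all liver ratios by 0.65, and that between wild-type tissues by 0.35; quantile normalization shifted the duodenal median by 0.15 and the tissue median by 0.15, and loess the latter by 0.12. All genes higher and lower numbered 659 and 502 in liver (3634 and 142 on the spiked scale), 1287 and 1632 in duodenum (1533 and 1083 under quantile normalization) and 2035 and 2762 in liver against duodenum (3147 and 1900 on the spiked scale). Over the alternatives these counts ranged from 154 to 3634 and 75 to 1906 in liver, 352 to 2831 and 302 to 3816 in duodenum, and 1152 to 3268 and 1261 to 4846 between tissues.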
